A study of Mus musculus with 10 samples.

Results

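The genes that flank Tet2 on mouse chromosome 3 were examined in 11 embryonic stem (ES) cell lines, 5 of which lack Tet2. They were chosen by position: every gene probe of the array whose smaller mm9 coordinate lies on chromosome 3 between 123000000 and 143000000, with the 3 Tet2 probes left out. This gave 201 probes for 163 genes, of 39429 probes for 31660 genes on the array. Of these, 125 probes for 100 genes were bright enough to be tested, that is, in at least 1 group of one genotype and sex every array read them well above background in that group's dye. The other 76 were not, and no change is given for them.

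ES cells are self-renewing cell lines established in culture from blastocysts. The lines carried Tet1 and Tet2 in wild-type form (WT lines 6 and 92, male, and 7 and 94, female), lacked Tet1 (T1KO lines 99 and 65, male), lacked Tet2 (T2KO line 16, male) or lacked both (DKO lines 51 and 61, male, and 60 and 59, female). All came from mice of mixed background that the labels give as C57/BL/6, and all were grown with LIF on irradiated feeder cells that were removed by preplating. T2KO is a single line. RNA of 2 lines was hybridised together on each of 10 two-colour arrays: DKO 51 with WT 6, DKO 61 with WT 92, DKO 60 with WT 7, DKO 59 with WT 94 and T2KO 16 with T1KO 65. The DKO or T2KO line was always in Cy5, the WT or T1KO line always in Cy3, and no array had the dyes swapped. Absence of Tet2 and the Cy5 dye therefore cannot be told apart in any ratio given here. In the DKO over WT pairs Tet1 is lost together with Tet2, and in T2KO over T1KO it is lost in the opposite line. A mean over all pairs therefore carries the loss of Tet1 as well. T1KO 99 was also in Cy3, opposite a sample that the labels leave out for its genotype.

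Tet2 encodes a dioxygenase that oxidises 5-methylcytosine in DNA. A gene targeted in ES cells keeps the DNA that lay beside it in the targeted cell, and in a mixed background the flanking segment can differ in strain from that of the control lines. A deletion can also reach the regulation of a neighbour. Both are known as reasons to look at the genes next to a targeted locus. One neighbour of Tet2, Cxxc4, is the descendant of the part of the ancestral Tet2 gene that encoded its CXXC zinc finger. Strain at this locus was not measured in these files.

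The probes are 60 bases long, and stretches of at most 30 bases of those on which the results turn are printed here, 5′ to 3′, as the array design gives them, with positions on mm9. The Tet2 probes are printed to give the positions at which the gene was read. The Gm2095 probe is the one called within 1 Mb of Tet2. The Cyp2u1 probe is shown for its dinucleotide repeat, in capitals.
Tet2, chr3:133126751-133126810, minus strand: gcttacttcctgagattttggctttgttta
Tet2, chr3:133126905-133126964, minus strand: acgcacagtgatgtatagttcactttacaa
Tet2, chr3:133176421-133176479, minus strand: gaaaatccgaagaaccccttgtgcctttaa
Gm2095, chr3:133899791-133899850, plus strand: taattaaaggcagactggcagcgtctgtaa
Cyp2u1, chr3:130996343-130996402, minus strand: tgGTGTGTGTGTGTGTGTGTGTGTGTGTGT

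Tet2 itself was read first, as a check of the labels. The Tet2 probe at chr3:133126751-133126810 had log2 intensities of 12.05, 11.51, 11.95 and 11.78 in WT lines 6, 92, 7 and 94 and of 11.58 and 11.43 in T1KO lines 99 and 65. It had 9.78, 10.12, 9.60 and 9.40 in DKO lines 51, 61, 60 and 59 and 9.74 in T2KO 16. No line lacking Tet2 reached the lowest line with it. The mean log2 ratio over the 5 pairs was -2.01 (SE 0.17, limma adjusted p = 0.0105), a 4.04-fold fall. The second probe, with 94 bases between them, gave -1.83 (SE 0.15, limma adjusted p = 0.0105). The last of them, 49.5 kb away, gave 0.15 (SE 0.09, limma adjusted p = 0.373). Which part of Tet2 the alleles lack is unknown here. As RNA of whole cultures was measured, fewer cells of a type and less RNA per cell cannot be told apart in this and the following values.

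Over the 5 pairs of lines lacking and having Tet2, 6 of the 125 flanking probes passed a limma adjusted p of 0.05, 4 upwards and 2 downwards. The Tet1 probe had a mean log2 ratio of -1.29 over these pairs, so this mean does not separate loss of Tet2 from loss of Tet1. Across the array 592 of 25851 probes passed, which is 2.29%, against 4.8% of the flanking probes. Gm2095, the Cyp2u1 probe, Rpl34 and Neurog2 rose, and Dnajb14 and Cenpe fell. Gm2095 and Neurog2 entered the test only through lines lacking Tet2, in which they are higher. At an unadjusted p of 0.05 it was 31 of the 125, or 24.8%, against 21.0% across the array. The median ratio of the flanking probes was 0.05 on the log2 scale (0.01 over all probes), and the median size of the ratio, sign dropped, was 0.14 (0.12 over all probes). No flanking probe reached a mean log2 ratio of 1 in either direction, as 2 Tet2 probes did. Across the array only 122 of 25851 probes did, so few would be looked for among 125. Above 1/2 in size on the log2 scale there were 11 flanking probes, 8.8%, against 3.75% across the array. This difference in share was not tested. The counts of called flanking probes moved with those of the array. With DKO 51/WT 6, DKO 61/WT 92 or DKO 59/WT 94 left out no flanking probe passed, and across the array 1, 0 and 0 probes did. Without DKO 60/WT 7 it was 1 flanking probe and 0.828% of the array, and without T2KO 16/T1KO 65 it was 8 and 4.0%. Of the 6 calls, Cyp2u1 alone was kept when normexp was fitted on all spots, and Cyp2u1 and Cenpe alone when every array entered with the pair as a random block.

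**Figure D1:**
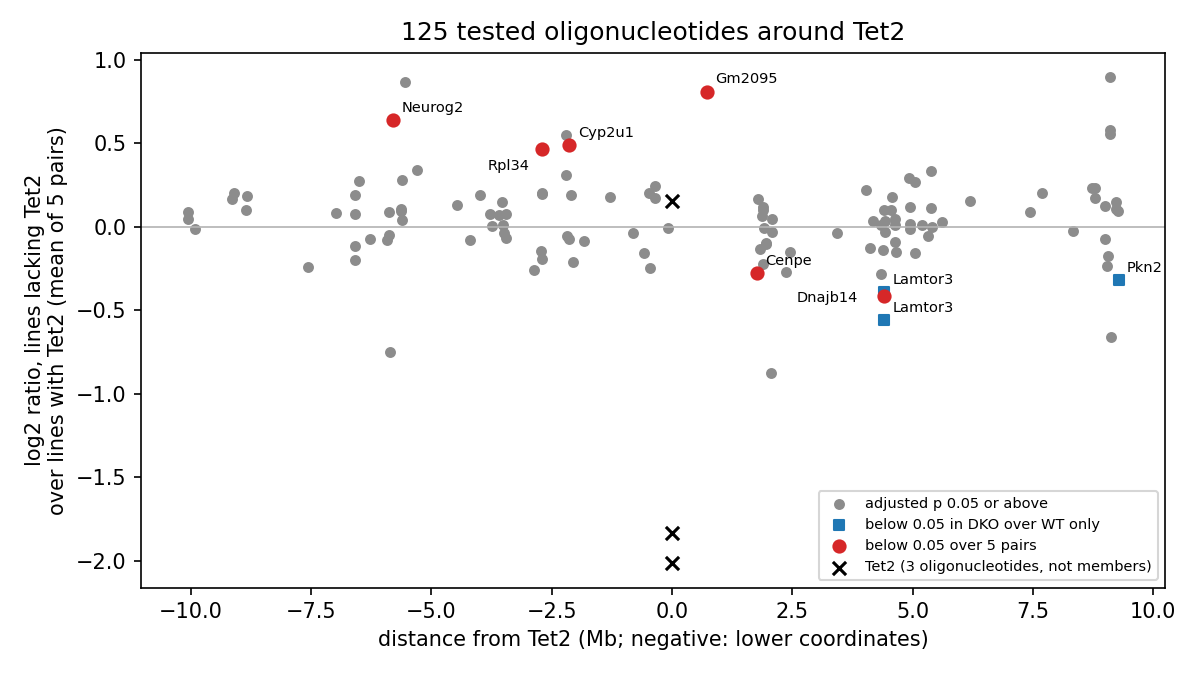
Mean log2 ratio of lines lacking Tet2 over lines with Tet2 (5 pairs, vertical axis) against the distance of each of the 125 tested flanking probes from Tet2 in Mb (horizontal axis); red points passed adjusted p 0.05 over the 5 pairs, blue squares only in the DKO over WT pairs, and crosses are the 3 Tet2 probes. The called probes lie from 0.72 to 9.28 Mb from Tet2 with uncalled ones between them, and none is as far from 0 as the 2 Tet2 probes near -2.

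The genes closest to Tet2 came first. On the side of lower coordinates the nearest was Ppa2, a mitochondrial inorganic pyrophosphatase, 0.0858 Mb away. Its levels were 13.98, 13.71, 13.60 and 13.65 in the WT lines, 13.62 and 13.59 in T1KO, 13.80, 13.91, 13.67 and 13.63 in DKO (lines 51, 61, 60 and 59) and 13.48 in T2KO. The groups overlapped, and the mean log2 ratio was -0.01 (SE 0.07, limma adjusted p = 0.971). Ints12, a subunit of the Integrator complex that processes small nuclear RNAs, lay 0.355 Mb away. Its 4 DKO over WT ratios were 0.35, 0.29, 0.33 and 0.19, all above 0, and its T2KO over T1KO ratio was 0.07. The mean of 0.25 (SE 0.06) did not pass the test (limma adjusted p = 0.115).

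Further out on that side, D630013G24Rik had a mean log2 ratio of 0.17. The 2 probes of Gstcd, whose product has a glutathione S-transferase domain, gave 0.20 and -0.25 and so differed in sign. Npnt, which encodes the matrix protein nephronectin, gave -0.16, and Aimp1, a scaffold of the aminoacyl-tRNA synthetase complex, gave -0.04. None of these passed the test.

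On the side of higher coordinates the nearest tested gene was Gm2095, at 0.723 Mb, a predicted gene of the array's design that was not matched to RefSeq here. Its log2 intensities were 6.66, 6.49, 6.45 and 6.43 in WT 6, 92, 7 and 94 and 6.78 and 6.69 in T1KO 99 and 65. They were 7.29, 7.34, 7.36 and 7.35 in DKO 51, 61, 60 and 59 and 7.42 in T2KO 16. The groups did not overlap. The ratio was 0.63, 0.85, 0.91 and 0.92 in the DKO pairs and 0.73 in the T2KO pair, with a mean of 0.81 (SE 0.07, limma adjusted p = 0.0105), higher in 5 of 5 pairs. The probe was not well above background on any of the 6 WT or 4 T1KO arrays and was so on all 6 DKO and both T2KO arrays. Under the processing used here DKO over WT was therefore at least 1.61-fold. This bound takes the dim lines at the lowest signal that counted as above background. The probe entered the test only through lines lacking Tet2, in which it is higher. Its call, its lack of overlap and the bound are not independent of that selection. The size of the ratio depended on the processing, and the bound did not hold under every alternative. The lowest DKO over WT ratio among the alternatives was 0.22 on the log2 scale. The mean ratio over the 5 pairs was 2.87 in the log ratios of the scanner software (limma adjusted p = 0.00121). It was 0.24 in the authors' deposited table, where it did not pass (limma adjusted p = 0.0861). The call was also lost with normexp on all spots (limma adjusted p = 0.222) and with every array and the pair as a random block (limma adjusted p = 0.259). A second Gm2095 probe, 2.53 kb away, was above background on no WT or DKO array and lay between 6.41 and 6.63 in all labelled lines.

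Cxxc4 lay 0.745 Mb away and was not tested. Its log2 intensity was 6.21 to 6.36 in the lines with Tet2 and 6.01 to 6.31 in the lines lacking it, not well above background on any WT or DKO array. A change of Cxxc4 was thus not measurable in either group.

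Cenpe, a kinesin of the mitotic kinetochore, lay 1.76 Mb away. Its ratio was -0.30 in DKO 51/WT 6, -0.30 in DKO 61/WT 92, -0.26 in DKO 60/WT 7, -0.25 in DKO 59/WT 94 and -0.28 in T2KO 16/T1KO 65. The 5 pairs were close to each other, and the mean of -0.28 (SE 0.05) only just passed the test (limma adjusted p = 0.0498), lower in 5 of 5 pairs. Between lines the levels overlapped, at 13.75 to 14.13 with Tet2 and 13.45 to 13.84 without. Its call was lost when any pair was left out (limma adjusted p 0.0605 to 0.192), and its ratio turned to 0.17 when arrays were centred on their median in place of loess, a scaling that raised the median of all probes to 0.20.

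Beyond Cenpe came Bdh2, a short-chain dehydrogenase, at 0.17, then the sodium/proton exchangers Slc9b2 at -0.13 and Slc9b1 at 0.06 and 0.10 with its 2 probes. The 2 probes of Cisd2, an iron-sulphur protein, gave -0.22 and 0.12. None passed the test, and Bdh2 ranged from -0.77 to 0.73 over the pairs.

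**Figure D2:**
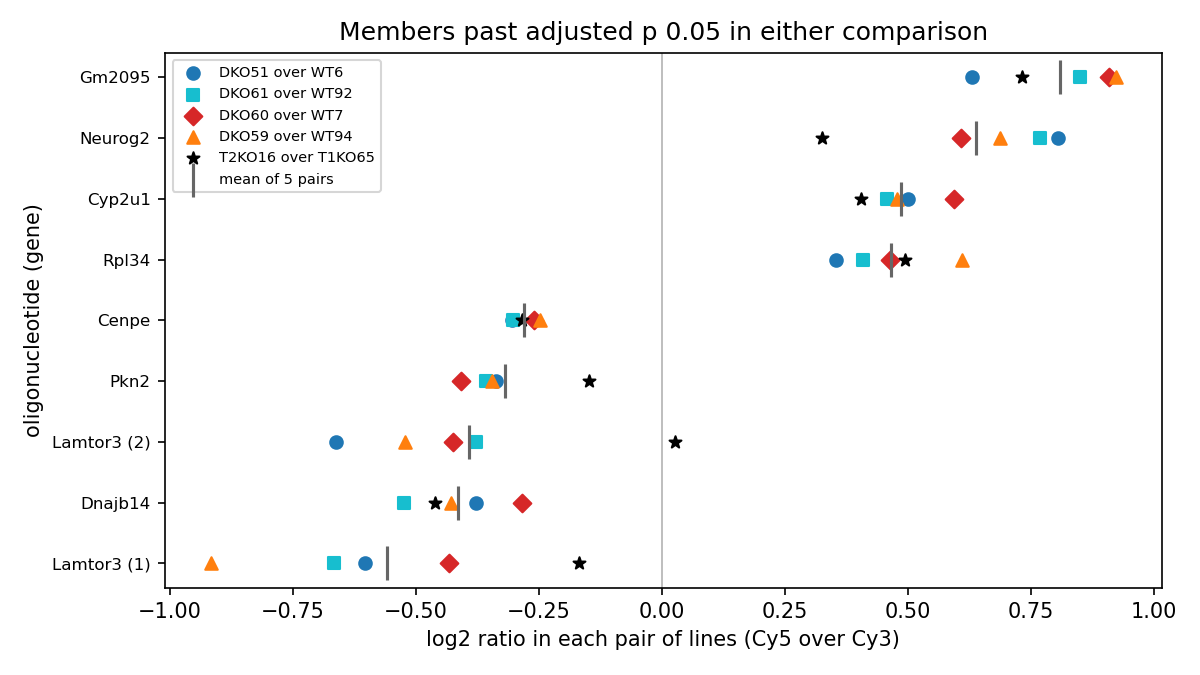
Log2 ratio in each of the 5 pairs of lines (horizontal axis; marker shape and colour give the pair, the grey bar the mean) for the 9 flanking probes past adjusted p 0.05 over the 5 pairs or in DKO over WT. Gm2095, Neurog2, Cyp2u1 and Rpl34 lie to the right of 0 and Cenpe, Pkn2, Dnajb14 and 1 Lamtor3 probe to the left in all 5 pairs, while T2KO over T1KO lies at 0.03 for the other Lamtor3 probe.

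Among genes for protein synthesis, Rpl34, a protein of the large ribosomal subunit 2.70 Mb from Tet2, rose. One of its probes covers 1848 bases of the genome with its 60 bases, so it crosses at least 1 intron. That probe was at 17.60, 17.67, 17.68 and 17.55 in WT 6, 92, 7 and 94, and at 17.55 and 17.62 in T1KO. It was at 17.96, 18.08, 18.15 and 18.16 in DKO 51, 61, 60 and 59 and at 18.12 in T2KO. The lines did not overlap, and the mean ratio was 0.47 (SE 0.06, limma adjusted p = 0.0196), 1.38-fold, higher in 5 of 5 pairs. In the scanner software's log ratios the mean was 0.28 and did not pass (limma adjusted p = 0.120). The other Rpl34 probe also had no overlap between lines, at 17.23 to 17.37 against 17.48 to 17.53, but a mean of 0.19 that did not pass (limma adjusted p = 0.129). The Rpl34-ps1 probe gave 0.20 (limma adjusted p = 0.389). Its RefSeq accession belongs to a gene on another chromosome, so signals of the copies may not be separate.

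These Rpl34 probes are among the brightest of the array. Of the 940 tested probes with a mean log2 intensity of 16 or above, 6.28% rose and 0.213% fell over the 5 pairs. Of the 3744 below 7, where Gm2095 and Neurog2 lie, 3.61% rose and 0.561% fell. In the range from 9 to 12, 0.891% rose and 0.522% fell. Gm2095 and Neurog2 were well above background on no WT or T1KO array. They entered the test only through lines lacking Tet2, in which they are higher. Of the calls across the array 74.3% were upward, against 61.0% with no filter on dim probes. The part of brightness or of the filter in the changes of these members was not tested.

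The Cyp2u1 probe, named for a cytochrome P450 and lying 2.13 Mb from Tet2, was at 16.28, 16.26, 16.36 and 16.44 in WT 6, 92, 7 and 94 and at 16.19 and 16.45 in T1KO 99 and 65. It was at 16.78, 16.72, 16.95 and 16.92 in DKO 51, 61, 60 and 59 and at 16.85 in T2KO. The mean ratio was 0.49 (SE 0.05, limma adjusted p = 0.0133), 1.40-fold, higher in 5 of 5 pairs. A second Cyp2u1 probe, which matched the RefSeq transcript, was above background on none of the 6 WT arrays and on 1 of the 6 DKO arrays, at 6.35 to 6.69 in the lines with Tet2 and 6.53 to 6.77 in those without. The probes of this gene thus read very different signals.

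The bright Cyp2u1 probe holds an unbroken GT repeat of 32 bases. The motif GTGTGTGTGTGTGTGT, searched in the probe sequences as written, was found in 69 probes of the array, 0.175% of them, and in no other flanking probe. All 69 were tested. Their ratio was above 0 in 69 of 69 and 68 rose, with a median of 0.49 and a range from 0.31 to 0.64. In T2KO over T1KO all 69 were also above 0, with a median of 0.44. Their median level was 15.20, against 9.23 over all tested probes. In T1KO minus male WT, where both groups were in Cy3, 13 of 69 were above 0 and the median was -0.31. The complementary motif CACACACACACACACA was found in 32 probes, of which 30 were tested. Their ratio was above 0 in 30 of 30, with a median of 0.13, and 1 rose. In T2KO over T1KO 26 of 30 were above 0, with a median of 0.09. In T1KO minus male WT 11 of 30 were above 0 and the median was -0.27. This search was made after the value of the Cyp2u1 probe had been seen. The ratio of the Cyp2u1 probe was thus close to the median of the probes across the array that share its repeat. The part of the dye or of the repeat in its rise was not tested.

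**Figure D3:**
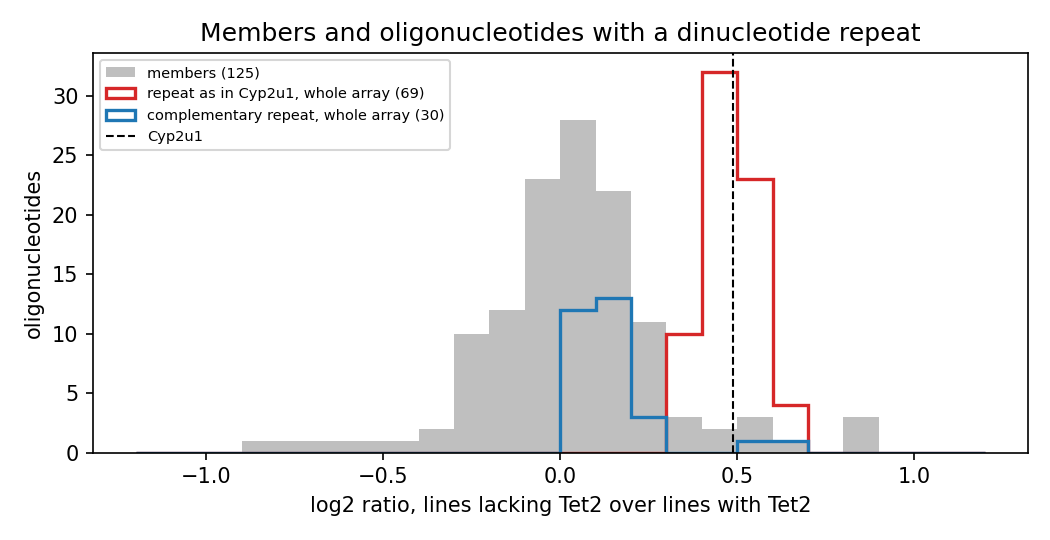
Number of probes (vertical axis) by mean log2 ratio over the 5 pairs (horizontal axis, steps of 0.1) for the 125 flanking probes (grey), the 69 probes of the array with the dinucleotide repeat of the Cyp2u1 probe (red) and the 30 with the complementary repeat (blue). The red probes all lie between 0.31 and 0.64, and the dashed line of Cyp2u1 at 0.49 is in their middle.

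Neurog2, a bHLH transcription factor of neural progenitors 5.79 Mb from Tet2, rose as well. Its levels were 6.38, 6.51, 6.48 and 6.44 in WT 6, 92, 7 and 94 and 6.56 and 6.64 in T1KO 99 and 65. They were 7.19, 7.28, 7.09 and 7.13 in DKO 51, 61, 60 and 59 and 6.96 in T2KO. The lines did not overlap. The ratio was 0.81, 0.77, 0.61 and 0.69 in the DKO pairs and 0.33 in the T2KO pair, with a mean of 0.64 (SE 0.08, limma adjusted p = 0.0220). As with Gm2095, no WT or T1KO array was well above background, and the probe entered the test only through lines lacking Tet2. DKO over WT was at least 1.43-fold under the processing used here. The call, the lack of overlap and the bound are not independent of that selection. This bound did not hold under every alternative, as the lowest DKO over WT ratio among them was 0.49 on the log2 scale. The mean ratio was 2.38 in the log ratios of the scanner software and 0.45 in the authors' deposited table, and passed in both. The call was lost with normexp on all spots (limma adjusted p = 0.222) and with every array and the pair as a random block (limma adjusted p = 0.0689).

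Dnajb14, an endoplasmic reticulum co-chaperone 4.40 Mb from Tet2, fell with 1 of its 2 probes. That probe, matched to no RefSeq transcript, was at 8.13 to 8.33 in the lines with Tet2 and 7.70 to 7.92 in those without, with no overlap. Its ratios were -0.38, -0.52, -0.28 and -0.43 in the DKO pairs and -0.46 in the T2KO pair, with a mean of -0.41 (SE 0.06, limma adjusted p = 0.0267). The RefSeq probe, 7.97 kb away and brighter, gave -0.14 (limma adjusted p = 0.309).

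**Figure D4:**
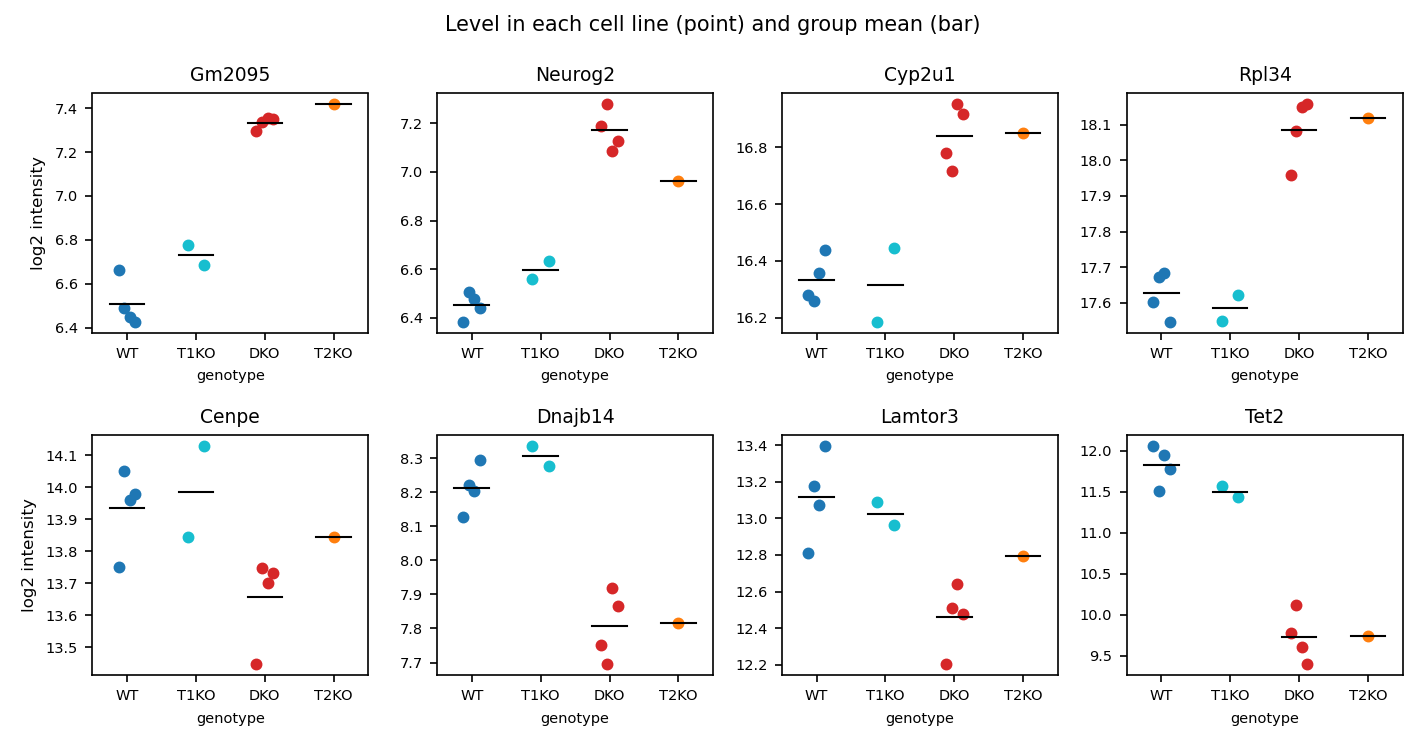
Log2 intensity of each cell line (points) and the group mean (bars) by genotype for the 6 flanking probes called over the 5 pairs, 1 Lamtor3 probe and the first Tet2 probe; each panel has its own vertical axis, which does not start at 0. WT and T1KO lines were in Cy3 and DKO and T2KO lines in Cy5, and Cenpe is the panel in which lines with and without Tet2 overlap.

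The 4 DKO over WT pairs alone gave 8 calls among the 125 flanking probes, 4 up and 4 down, or 6.4% against 4.0% across the array. They share their arrays with the comparison above and do not stand as separate evidence. With any 1 of the 4 pairs left out no probe passed, flanking or elsewhere, and with sex as a covariate no flanking probe and 0.0271% of the array did. The male DKO pairs were all on one slide and the female ones all on another, so sex and slide cannot be told apart in these pairs. Gm2095, Neurog2, Cyp2u1, Rpl34 and Dnajb14 passed in DKO over WT too. The other 3 probes were 2 of Lamtor3 and 1 of Pkn2.

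Lamtor3, a scaffold of the Ragulator complex on late endosomes, lies beside Dnajb14, 4.42 Mb from Tet2. Its first called probe was at 12.81, 13.18, 13.07 and 13.39 in WT 6, 92, 7 and 94 and at 12.21, 12.51, 12.64 and 12.48 in DKO 51, 61, 60 and 59, without overlap. The DKO over WT mean was -0.65 (SE 0.09, limma adjusted p = 0.0355), 1.57-fold lower, and lower in 4 of 4 pairs. The T2KO over T1KO ratio of this probe was -0.17, from levels of 12.79 and 12.96. The second gave -0.50 (SE 0.07, limma adjusted p = 0.0368) in DKO over WT and 0.03 in T2KO over T1KO. Another, dimmer probe of the same transcript gave -0.01 (limma adjusted p = 0.974), so the probes of the gene disagree.

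Pkn2, a serine/threonine kinase at the far end of the window, 9.28 Mb from Tet2, fell in DKO over WT, by -0.34, -0.36, -0.41 and -0.34 in the 4 pairs. The mean was -0.36 (SE 0.05, limma adjusted p = 0.0402). Its ratio in the T2KO pair was -0.15.

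T2KO over T1KO is a single pair of lines, with its spread taken from the DKO over WT pairs. By limma none of the 125 flanking probes passed, and across the array the share was 0%. At an unadjusted p of 0.05 it was 19 flanking probes, 15.2%, against 12.7% across the array. No flanking probe passed in the test of DKO over WT minus T2KO over T1KO either, against 0.0232% across the array. In that test 17 flanking probes were below an unadjusted p of 0.05, 13.6%, against 13.3% across the array. The smallest limma adjusted p among them was 0.222, so no difference between the DKO and T2KO pairs was shown for Lamtor3 or any other member.

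T1KO minus male WT sets lines that all have Tet2 and were all labelled with Cy3 against each other. None of the 125 flanking probes passed by limma, again with 0% across the array. At an unadjusted p of 0.05 it was 9 flanking probes, 7.2%, against 13.3% across the array. The differences were 0.15 for Gm2095, 0.15 for Neurog2, 0.05 for Cyp2u1, -0.05 for Rpl34, 0.13 for Dnajb14 and 0.08 for Cenpe. These are smaller in size than the ratios of the same probes over the 5 pairs, by which the probes had been chosen. They are differences of Cy3 levels between slides, not ratios within an array, and slide and group cannot be told apart in them. This difference in size was not tested. The largest difference among the flanking probes was -1.25 (limma adjusted p = 0.180), for a probe without a gene name 8.84 Mb from Tet2. That probe was at 8.69 and 8.81 in T1KO 99 and 65 and at 10.07 and 9.93 in WT 6 and 92. It was at 8.89 in T2KO 16 and at 10.12 to 10.74 in the DKO lines. It was the 1 flanking probe above 1 in size, against 162 of 25839 across the array.

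Distance from Tet2 was then compared with the size of the ratio. Of the 8 tested probes within 1 Mb, 1 passed over the 5 pairs, and their median size was 0.19 on the log2 scale. Of the 24 from 1 to 2.5 Mb, 2 passed, with a median size of 0.14. Of the 40 from 2.5 to 5 Mb, 2 passed, with 0.11, and of the 53 farther out 1 passed, with 0.15. The shares called were thus 12.5%, 8.33%, 5% and 1.89% from near to far. Across the array the share was 2.29%, with a median size of 0.12. With 1 or 2 calls in each range, no trend with distance is read from these shares. The sizes did not follow distance: Spearman's correlation was 0.03 and Pearson's r 0.05 over the 125 probes, which share arrays and in part genes. In T2KO over T1KO the median size was 0.11 within 1 Mb and 0.20 beyond 5 Mb, against 0.18 across the array.

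The sides were alike in calls, with 3 of 59 probes at lower coordinates and 3 of 66 at higher ones. On chromosome 3 outside the window 23 of 1092 probes passed, 2.11%, with a median size of 0.12. In a window of 10 Mb on each side of Tet1 on chromosome 10, 3 of 155 passed, 1.94%, with a median size of 0.11.

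Of the 125 flanking probes, 28 had the same sign in all 5 pairs, 17 above 0 and 11 below. This is 22.4%, against 21.2% across the array. In 13, or 10.4%, the lines lacking Tet2 did not overlap those with it, 8 higher and 5 lower, against 4.32% across the array. The 13 include 2 Rpl34 probes and the Cyp2u1 probe with the repeat. They also include Gm2095 and Neurog2, which entered the test only through lines lacking Tet2. Besides genes named above, they hold 1 probe each of D030025E07Rik, Col25a1, H2az1, Eif4e and 4930590L14Rik, none of which passed the test.

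Some genes with large mean ratios did not pass. Fam241a gave 1.24, 0.95, 1.505 and 0.14 in the DKO pairs (lines 51, 61, 60 and 59) and 0.49 in the T2KO pair (mean 0.87, limma adjusted p = 0.0946). Zgrf1, a helicase of DNA repair, gave -0.99, -0.90, -1.18 and -0.17 in the DKO pairs and -0.51 in the T2KO pair (mean -0.75, limma adjusted p = 0.0716). Manba, the lysosomal beta-mannosidase, gave -0.38, -0.85, -1.07 and -2.15 in the DKO pairs and 0.06 in the T2KO pair. In each the DKO 59/WT 94 pair lay at one end of the DKO values.

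The interferon-inducible GTPases at 9 Mb varied more. Gbp2b gave 0.25, 0.59, 0.95 and 4.11 in the DKO pairs and -1.43 in the T2KO pair. Its highest ratio came with a level of 6.94 in WT 94, while the other labelled lines lay between 9.11 and 11.41. Gbp2 gave -2.51 in the T2KO pair, with 12.97 in T1KO 65 and 10.46 in T2KO 16, and between -0.77 and 0.55 in the DKO pairs. Neither passed a test.

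Calls by role stand beside 2.29% called across the array, and with 0 to 3 calls each nothing particular to a role is read from them. No probe of the 15 tested signalling genes passed over the 5 pairs (0 of 26 probes, median ratio 0.06), while 2 of them, both of Lamtor3, fell in DKO over WT. Their largest mean ratios were Lamtor3 at -0.56 and Lef1, a transcription factor of Wnt signalling, at 0.55. Lef1 stood at 0.14, 1.14, 1.48 and -0.004 in the DKO pairs and at -0.02 in the T2KO pair. Of 18 genes of metabolism and transport 1 of 21 probes rose, that of Cyp2u1 (median 0.02). Of 18 genes of RNA, chromatin, protein synthesis and cell division, 1 of 27 probes rose, Rpl34, and 2 fell, Cenpe and Dnajb14 (median -0.01). Of 11 tissue-restricted genes 1 of 12 probes rose, Neurog2 (median 0.06). The median over all probes was 0.01.

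All 10 ES cell markers were detected, with a mean log2 intensity of 14.53 to 15.11 over the lines, and none passed over the 5 pairs. The 15 markers of feeder fibroblasts had means of 11.08 to 11.70 in lines lacking Tet2 and of 10.87 to 11.77 in lines with it. None of them passed, and their median ratio was 0.03. Spots well above background made up 55.2% to 61.5% of each array in Cy3 and 62.6% to 69.0% in Cy5, more in Cy5 on 10 of 10 arrays. Log ratios of repeat arrays correlated at 0.919 to 0.965 across probes, which are not independent replicates.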

How the data were processed

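The deposited scanner files hold mean spot intensity and local background intensity in each channel, not normalized, and a log10 ratio of processed Cy5 over Cy3 intensity, as Feature Extraction 10.1.1.1 wrote them, per the file headers. The authors' deposited value table holds ratios close to log2 (Cy5 over Cy3). How it was normalized and centred is unknown here, and its column medians were 0.00178, 0.00341, 0.00544, 0.00499, 0.00321, 0.00752, 0.00669, 0.00565, 0.00212 and 0.00685. Background was corrected by normexp (offset 50), with gene spots below local background (71 to 122 per array) kept out of that fit, a choice adopted with gene values known. Ratios were normalized by loess and channels by Aquantile in limma 3.58.1 on R 4.3.3. Values were averaged over spots of a probe, then over repeat arrays. Limma (lmFit, eBayes, two-sided, Benjamini-Hochberg over all tested probes at 0.05) tested the mean of 5 pairs, of the 4 DKO pairs, and the other contrasts. The p-values measure spread between lines, and the number of arrays limits precision. The script was tested on simulated data.

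Of 201 flanking probes, 124 were named through a RefSeq accession (GRCm38 table) and the others kept the array's name. Positions are the design's, on mm9; exons were not annotated. Named genes were those past the threshold (up to 20 over the 5 pairs, up to 10 in each other comparison), the 6 nearest on each side, the 10 with the largest ratio of one sign in all 5 pairs and the 2 with the largest ratio in each functional list; others named were chosen after their values were seen. Members, lists and rules were chosen with earlier results of these data known. Alternatives covered background, normalization, filters, probe choice, variance prior, blocks, sex and left-out lines.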

Additional observations from a re-analysis of the deposited data

Results flagged for a closer look

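In the 4 DKO over WT pairs, 1 probe of Slc9b1 had a value far from the other 3: its ratio was -0.52 in DKO 60/WT 7 and 0.005 to 0.09 in the others. Chance flags about 1 in 20 such groups, and 29 probes were looked at.

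The sample in Cy5 opposite T1KO 99, which the labels leave out for its genotype, entered no comparison. On its 2 arrays 12 flanking probes were well above background that were so on no WT array, all of which were in Cy3. The share of all probes of the array with this pattern was not counted, so nothing particular to the flanking probes is read from it. Among the genes named here these were Neurog2 at a log2 intensity of 6.99, D630013G24Rik at 6.91 and Gm2095 at 7.26. The highest WT lines stood at 6.51, 6.78 and 6.66 for these 3 probes. More spots were well above background in Cy5 than in Cy3 on all 10 arrays, and the part of the dye was not tested.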

How the results depend on the processing

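No paired analysis was possible because the replicate numbers in the labels count repeat arrays of the same lines, so they gave no block; lines are paired by array in every ratio. Over the 5 pairs, the 6 calls among flanking probes (2.29% across the array) became 1 with normexp on all spots (0.309%), 2 in the authors' value table (1.27%), 3 with only probes well above background everywhere (0.974%), 0 with DKO over WT and T2KO over T1KO given equal weight (0%) and 45 with median centring in place of loess (34.1%). Median centring moved the median of all probes from 0.01 to 0.20, that of the flanking probes to 0.18 and the upward share of calls across the array from 74.3% to 92.8%. Leaving out a pair gave 0 to 8 (0% to 4.0%). With every array and the pair as a random block there were again 6 (3.33% across the array), but 2 up and 4 down, and 2 of the original 6 were kept. The 8 calls in DKO over WT (4.0% across the array) became 2 with normexp on all spots (0.735%) and 43 with median centring (32.2%). They became 3 in the value table (2.70%), 4 with the stricter filter (2.01%) and 13 with that block (6.73%). With sex as a covariate (0.0271%) and with any 1 pair left out (0%) there were 0. With that block, T2KO over T1KO and its difference from DKO over WT had 1 call each (0.689% and 1.49% across the array). Under median centring Cenpe reversed to 0.17, and Aimp1 and Ppa2 changed sign and passed at 0.48 and 0.43. Calls over the 5 pairs held in 11 of 16 alternatives for Cyp2u1, 9 of 16 for Gm2095 and for Neurog2, 8 of 16 for Rpl34, 7 of 15 for Dnajb14 and 5 of 17 for Cenpe. The number of calls under the other alternatives stayed within 1.5 times, which does not say that they were the same probes. In DKO over WT slide and sex cannot be told apart. In T1KO minus male WT slide and group cannot be told apart, and the scanner's log ratios and the value table could not give it. The causes of these changes were not tested.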

Other observations

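The sample left out by the labels had Tet2 log2 intensities of 10.003 and 8.79 at the first 2 Tet2 probes and 12.99 for Tet1; no genotype is read from these values. At the 13 flanking probes whose lines with and without Tet2 did not overlap, this sample, labelled with Cy5, lay within the range of the lines lacking Tet2 at 6, within that of the lines with Tet2 at 3 and in neither range at 4. This placement was not counted for the other probes of the array, so nothing particular to the flanking probes is read from it. The sample stood at 18.09 for Rpl34 and 16.70 for Cyp2u1, close to the other Cy5 samples, and at 12.85 for the first Lamtor3 probe and 10.12 for Pkn2, inside the range of the lines with Tet2.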
